A study of Homo sapiens with 2 samples.

Results

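The genes described here make, transport, break down and sense prostaglandins in A549 cells, a human lung adenocarcinoma line, with and without forced expression of the zinc finger gene ZNF300. They are 10 named genes, taken as every probe set of the array that is annotated to exactly 1 gene when that gene is HPGD, PTGS1, PTGS2, PTGES, PTGES2, PTGER2, PTGER4, PTGR1, PLA2G4A or SLCO2A1. Such probe sets named 19775 genes in all, and 21 of them named a prostaglandin gene. In A549-ZNF300 the cells carried the LV5 lentiviral vector with the coding sequence of ZNF300. In A549-LV5, which the study also calls A549-ZNF300-NC, they carried LV5 with a random DNA sequence. Both vectors also encode green fluorescent protein and puromycin resistance, and whether a culture was 1 clone or a pool was not given in the sources used here. The comparison asks how the expression profile differs once ZNF300 is overexpressed. Each condition was measured on 1 Affymetrix Human U133 Plus 2.0 array, 2 arrays in all, so differences have no replicate check, p-values were not computed, and precision is limited by how few arrays there are. The genes were selected on the log2 signals of these same arrays and the difference between them, so those differences are a description.

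Prostaglandin synthesis starts when cytosolic phospholipase A2, the product of PLA2G4A, releases arachidonic acid from membrane lipids. The cyclooxygenases, encoded by the constitutive gene PTGS1 and the inducible gene PTGS2, convert it to PGH2, and the PGE synthases of PTGES and PTGES2 turn PGH2 into PGE2. PGE2 acts through receptors such as EP2 and EP4, which raise cAMP. Its action ends when the transporter encoded by SLCO2A1 carries it into cells, where the dehydrogenase encoded by HPGD oxidises it and reductases such as that of PTGR1 act on the keto product. A549 cells are a common model of inducible PTGS2 and PTGES expression after treatment with interleukin-1.

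The 3 genes with the largest differences were HPGD, PLA2G4A and PTGS2, and their promoters are shown because these genes were higher together and because PTGS2 and PLA2G4A are next to each other on chromosome 1. Each sequence runs from 250 bases before to 50 bases after a RefSeq start site in GRCh38.p14, 5′ to 3′ on the strand of the gene, and matches to 7 motifs on either strand are in capitals. The motifs were the TATA box (TATAAA), the CRE half-site (TGACG), the AP-1 site (TGANTCA), a C/EBP site (TTNCGCAA), the GC box (GGGCGG), the E-box (CACGTG) and the NF-kB consensus. The promoter of PTGS2 lies at chr1:186680374-186680673 on the minus strand, that of PLA2G4A at chr1:186828699-186828998 on the plus strand, and that of HPGD, the further downstream of 2 start sites listed for it, at chr4:174522439-174522738 on the minus strand.
PTGS2: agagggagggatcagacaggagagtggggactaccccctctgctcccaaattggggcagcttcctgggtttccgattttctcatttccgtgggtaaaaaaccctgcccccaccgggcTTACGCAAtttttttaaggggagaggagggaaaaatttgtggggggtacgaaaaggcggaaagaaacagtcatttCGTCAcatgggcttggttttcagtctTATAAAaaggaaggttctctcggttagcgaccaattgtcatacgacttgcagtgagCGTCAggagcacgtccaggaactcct
PLA2G4A: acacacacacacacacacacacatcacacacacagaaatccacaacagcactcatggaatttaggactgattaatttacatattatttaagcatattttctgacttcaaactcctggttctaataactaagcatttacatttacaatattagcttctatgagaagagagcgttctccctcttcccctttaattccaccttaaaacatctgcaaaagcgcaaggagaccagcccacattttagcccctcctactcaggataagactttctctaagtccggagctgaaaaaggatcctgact
HPGD: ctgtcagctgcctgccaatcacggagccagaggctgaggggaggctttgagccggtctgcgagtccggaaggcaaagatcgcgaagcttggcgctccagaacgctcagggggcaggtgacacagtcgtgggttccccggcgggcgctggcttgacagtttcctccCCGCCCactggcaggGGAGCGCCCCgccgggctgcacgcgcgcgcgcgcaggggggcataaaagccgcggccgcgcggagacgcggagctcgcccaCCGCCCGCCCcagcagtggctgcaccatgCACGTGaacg

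Counted from the start site, with the base before it as -1, the PTGS2 promoter held a TATA box beginning at -32, CRE half-sites beginning at -58 and 25, and a C/EBP site further upstream. The PLA2G4A promoter held 0 matches to the 7 motifs. The HPGD promoter held 3 GC boxes, of which the downstream 2 overlapped, an NF-kB consensus match beginning at -70 and an E-box beginning at 41. The window at the other HPGD start site, not shown, held 1 match, a CRE half-site. Of 35116 promoters of the same length, 11.5% held the TATA box, 24.6% the CRE half-site, 7.71% the AP-1 site, 0.891% the C/EBP site, 45% the GC box, 7.26% the E-box and 11.3% the NF-kB consensus. In the windows shown, PTGS2 and HPGD had no exact match to the same motif. Letters that missed a motif by a base were not counted, such as gggactaccc in the PTGS2 window for the NF-kB consensus. A match describes the letters only, and its absence says only that the letters are not in this window. Of the 10 genes, 9 had a promoter in the RefSeq table.

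The values are log2 signals as deposited, and the median of all 54675 probe sets was 6.03 in A549-ZNF300 and 6.14 in A549-LV5. A probe set is called detected here when its signal reached the array median on 1 or both arrays, and a detected gene is represented by its detected probe set with the highest mean signal. For the targeted gene ZNF300 the log2 signal was 8.91 in A549-ZNF300, called present, and 4.16 in A549-LV5, called absent. The epithelial markers of the labelled cell type differed between the arrays. All 5 of them were at least 2-fold higher in A549-ZNF300, and their summed log2 signal was 15.74 in A549-ZNF300 and 13.57 in A549-LV5. CDH1, which encodes E-cadherin, had 10.94 in A549-ZNF300 and 1.20 in A549-LV5, where it was called absent. KRT19, a keratin of simple epithelia, had 11.08 in A549-ZNF300 and 2.29 in A549-LV5, with the same absent call. KRT18 was above the array median in both, with 15.01 in A549-ZNF300 and 13.45 in A549-LV5. Of 5 alveolar type II markers, 3 were detected and 0 were 2-fold apart, with a summed log2 signal of 8.23 in A549-ZNF300 and 8.46 in A549-LV5. SFTPB, at a log2 difference of 0.09, had a second detected probe set at 2.08. Of 4 fibroblast markers, 3 were detected and at least 2-fold higher in A549-ZNF300, with a summed log2 signal of 10.60 in A549-ZNF300 and 7.94 in A549-LV5, and DCN was not detected. Once signals below the median were set to it, COL3A1 and LUM each differed by 0.15 on the log2 scale, and COL1A1 by 2.55. The other detected probe set of COL1A1 had a log2 difference of 0.40. Of the endothelial markers, 1 of 3 was detected, with log2 signals of 7.04 in A549-ZNF300 and 6.77 in A549-LV5. Of the 4 leukocyte markers, 2 were detected, with a summed log2 signal of 8.14 in A549-ZNF300 and 7.67 in A549-LV5, and PTPRC was not. Of 10 detected housekeeping genes, 1 was at least 2-fold lower, and their median log2 difference was 0.09. The methods of the study say that its cell lines were typed by STR profiling, but not whether that was done on the 2 transduced cultures, and with 1 culture each a difference between cell stocks and an effect of ZNF300 cannot be told apart in any value below. The part that the marker differences have in those values was not tested. In such bulk RNA, a change in the share of cells that express a gene and a change in RNA per cell cannot be told apart.

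Of the 10 prostaglandin genes, 8 were detected, and 15 of the 21 probe sets. All 15 detected probe sets had a higher signal in A549-ZNF300, 11 of them at least 2-fold. Of all 25145 detected probe sets that name 1 gene, 13.6% were at least 2-fold higher, and 46.6% of all detected genes were higher by any amount. The 4 probe sets of HPGD and the 1 of PTGER2 passed the filter only through A549-ZNF300, so their direction followed largely from the filter. Of the 8 detected genes, 5 were higher by 2-fold or more in A549-ZNF300 and 0 were lower by as much. Of all 13221 detected genes, 13.6% were higher by 2-fold or more and 15.4% lower by 2-fold or more. The 5 were HPGD, PLA2G4A, PTGS2, PTGER2 and PTGES2. The choice of the genes used these differences, so nothing is read from the share. Centring the arrays on housekeeping genes left 3, which were HPGD, PTGS2 and PLA2G4A, and the shares of all detected genes were then 8.99% higher and 25.5% lower. This centring subtracts from each array the median signal of its detected housekeeping genes, which shifts every log2 difference by -0.39. The median of the log2 differences of those genes was smaller, at 0.09, and a centring on that value was not run. Counts near 2-fold can thus depend on how the centring was done.

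**Figure D1:**
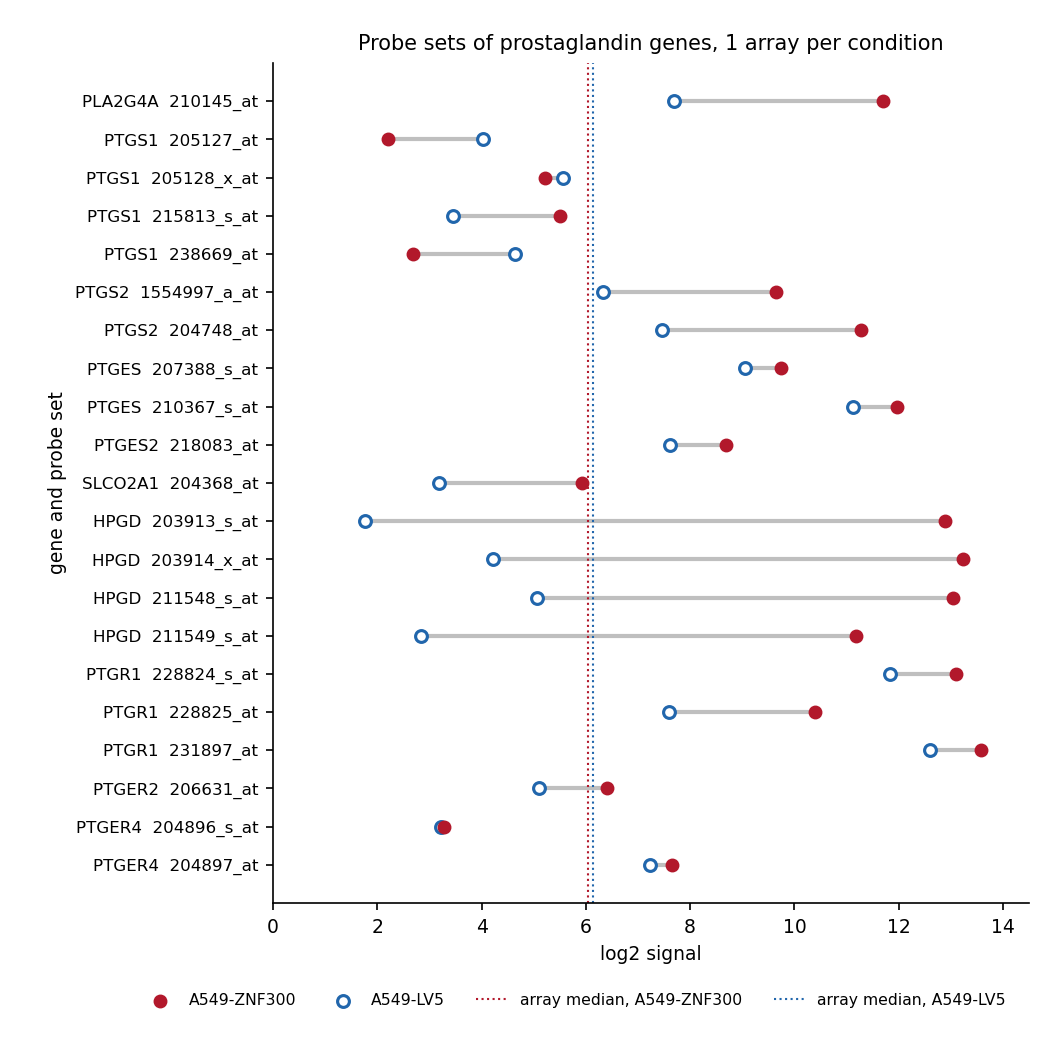
Log2 signal (x axis) of each of the 21 probe sets (y axis), in A549-ZNF300 (filled red) and A549-LV5 (open blue), with the array medians of 6.03 and 6.14 as dotted lines. The 4 HPGD probe sets lie at 11.18 or more in A549-ZNF300 and below the median in A549-LV5, while the PTGS1 probe sets stay below the median in both.

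For the release of arachidonic acid, PLA2G4A had 1 probe set, and its log2 signal was 11.70 in A549-ZNF300 and 7.69 in A549-LV5. It was called present in both arrays, and the difference of 4.02 is 16.2-fold. Among all detected genes it ranked 227 of 13221 from the most positive difference.

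The cyclooxygenase genes differed in whether they were measured at all. The brighter PTGS2 probe set (204748_at) had 11.29 in A549-ZNF300 and 7.46 in A549-LV5, which is 14.2-fold higher. The other (1554997_a_at) had 9.64 in A549-ZNF300 and 6.33 in A549-LV5, 9.97-fold higher, so the log2 differences were 3.82 and 3.32. Both probe sets were called present in both arrays. PTGS2 ranked 254 of 13221. PTGS1 had 4 probe sets, all below the median of both arrays, with log2 signals of 2.21 to 5.51 in A549-ZNF300 and 3.44 to 5.57 in A549-LV5. Their log2 differences went both ways, between -1.96 and 2.07. PTGS1 is therefore given no difference.

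The terminal PGE synthases were above the median in both arrays and differed by about 2-fold or less. PTGES, the inducible microsomal enzyme that works with PTGS2, had log2 signals of 11.98 in A549-ZNF300 and 11.13 in A549-LV5 for its brighter probe set, which is 1.80-fold higher. Its other probe set had 9.75 in A549-ZNF300 and 9.06 in A549-LV5, 1.62-fold higher. PTGES2, a membrane-associated PGE synthase, had 8.69 in A549-ZNF300 and 7.61 in A549-LV5, 2.13-fold higher. Both PTGES probe sets and the 1 of PTGES2 were thus higher in A549-ZNF300, by much less than those of PLA2G4A or PTGS2.

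The breakdown genes were led by HPGD, the enzyme gene that starts the inactivation of PGE2 and that is often low in epithelial tumours. Its 4 probe sets had log2 signals of 12.89, 13.24, 13.05 and 11.18 in A549-ZNF300, all called present. The same probe sets, in the same order, had 1.76, 4.22, 5.06 and 2.85 in A549-LV5, all called absent. The log2 differences of the probe sets lay between 7.99 and 11.13. The signals in A549-LV5 were all below the array median, and against that median the probe sets of A549-ZNF300 were 32.9-fold to 137-fold higher. The probe set with the highest mean signal, 211548_s_at, had a log2 difference of 7.99, or 6.91 against the median. All HPGD probe sets have names ending in _s_at or _x_at, which marks probes that can match more than 1 transcript.

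PTGR1, a reductase that acts on the keto product and on leukotriene B4, was high in both arrays. Its 3 probe sets had log2 signals of 13.57, 13.10 and 10.40 in A549-ZNF300, and 12.61, 11.83 and 7.60 in A549-LV5, in the same order. They were 1.95-fold, 2.40-fold and 6.95-fold higher in A549-ZNF300, so the brightest probe set, which represents the gene, was just short of 2-fold. All 3 went the same way, but their log2 differences of 0.97 to 2.80 spread more widely than those of PTGS2. The median SD of the log2 difference between detected probe sets of 1 gene was 0.35 over 6607 genes. SLCO2A1, the prostaglandin uptake transporter, was not detected, at a log2 signal of 5.93 in A549-ZNF300 and 3.18 in A549-LV5. Its signal in A549-ZNF300 was just under the array median of 6.03.

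Of the receptor genes, that of EP2 lay near the array median and that of EP4 above it in both arrays. PTGER2, which encodes EP2, had 6.40 in A549-ZNF300, called present, and 5.10 in A549-LV5, called absent. That is 2.47-fold higher, but with the signal of A549-LV5 raised to its array median the log2 difference was 0.26 in place of 1.31. PTGER4, which encodes EP4, had 7.65 in A549-ZNF300 and 7.23 in A549-LV5, 1.34-fold higher, and its other probe set was far below the median in both arrays (3.28 in A549-ZNF300 and 3.23 in A549-LV5).

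**Figure D2:**
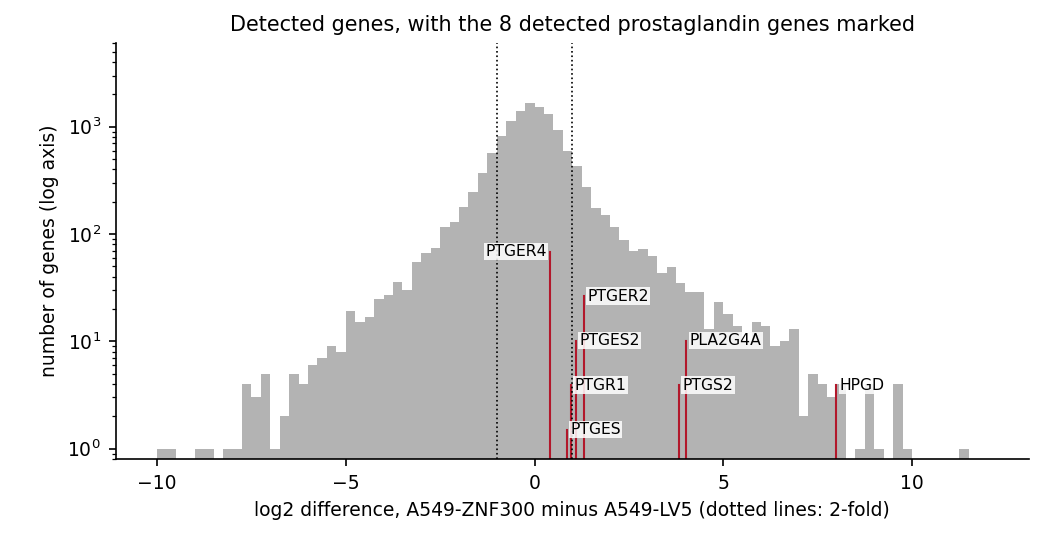
Number of detected genes (y axis, log scale) by log2 difference of A549-ZNF300 minus A549-LV5 (x axis), with red lines at the 8 detected prostaglandin genes, whose heights only separate the labels. HPGD at 7.99 lies in the sparse right tail, PLA2G4A at 4.02 and PTGS2 at 3.82 beyond most genes, and the other 5 between 0.42 and 1.31.

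The prostaglandin genes were set beside their neighbours on the chromosomes, by the gene order of RefSeq. PTGS2 and PLA2G4A are adjacent protein-coding genes. On the PTGS2 side, TPR, a nuclear pore protein gene, had log2 signals of 11.77 in A549-ZNF300 and 11.52 in A549-LV5, and ODR4 had 10.06 in A549-ZNF300 and 9.87 in A549-LV5. These are log2 differences of 0.25 and 0.20, which were -0.14 and -0.19 with housekeeping centring. PDC, between ODR4 and PTGS2, and BRINP3 and RGS18, beyond PLA2G4A, were not detected. The log2 differences of PTGS2 and PLA2G4A were thus more than 3 above those of the 2 genes around them that could be measured. Next to HPGD on chromosome 4, CEP44, a centrosome gene, had 9.91 in A549-ZNF300 and 9.90 in A549-LV5, and FBXO8, an F-box protein gene, had 9.66 in A549-ZNF300 and 9.80 in A549-LV5. On its other side GLRA3 was not detected, and the first detected gene, GPM6A, had a log2 difference of -2.71, with its signal in A549-ZNF300 (4.03) below the array median. The next, WDR17, was above the median in both arrays, with 6.84 in A549-ZNF300 and 9.13 in A549-LV5, a log2 difference of -2.29. SPATA4, beyond WDR17, had one of -0.10. Beside PTGES2, at a log2 difference of 1.09, SLC25A25 had one of 0.99, LCN2 one of 1.73, EEIG1 one of 1.36 and DNM1 one of 2.10, whereas BBLN had -0.60. Beside PTGES, at 0.85, ASB6 had 0.89, TOR1A 0.82 and NTMT1 0.99, whereas TOR1B had -0.01. Beside PTGR1, at 0.97, GNG10 had 0.62, ZNF483 -0.65 and UGCG -2.45. The other detected genes near PTGES2 were DPM2 at 0.45, NAIF1 at 0.26, CIZ1 at 0.25 and GOLGA2 at -0.24. Near PTGES they were C9orf78 at 0.48, USP20 at -0.35 and FNBP1 at -0.37, and near PTGR1 LPAR1 at -0.28 and ECPAS at -0.44. The genes around PTGES2 and PTGES thus included several with differences of the same size and several with smaller or negative ones.

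**Figure D3:**
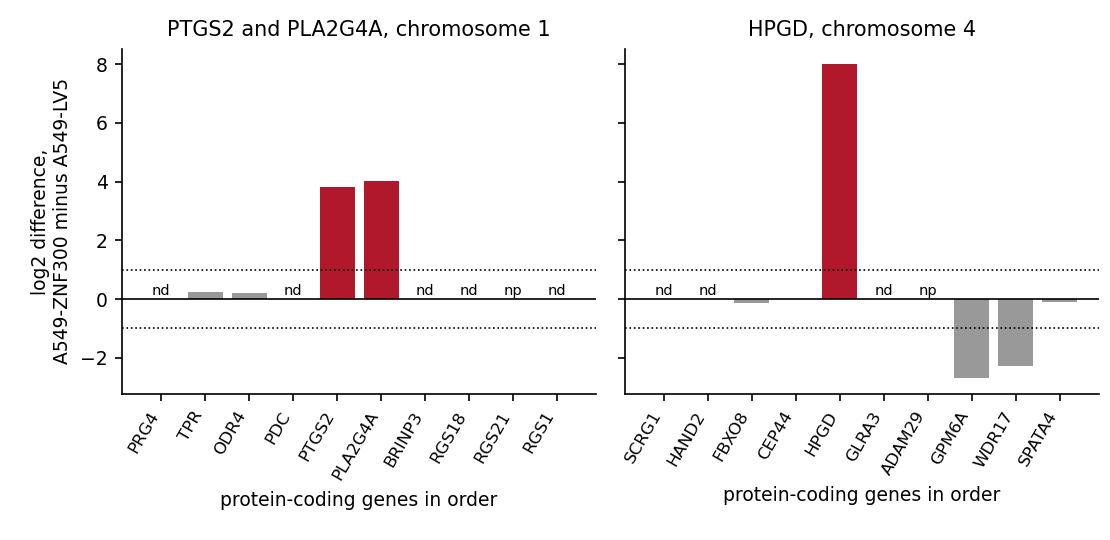
Log2 difference of A549-ZNF300 minus A549-LV5 (y axis) for protein-coding genes in chromosomal order (x axis) around PTGS2 and PLA2G4A (left) and HPGD (right), with prostaglandin genes in red, dotted lines at 2-fold, nd for not detected and np for no probe set that names the gene alone. The detected neighbours TPR, ODR4, FBXO8 and CEP44 lie between -0.14 and 0.25, while GPM6A and WDR17, on the other side of HPGD, lie at -2.71 and -2.29.

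Of the 10 genes, 4 lie on chromosome 9: PTGR1, PTGS1, PTGES2 and PTGES. The 3 detected ones had log2 differences of 0.97, 1.09 and 0.85 for PTGR1, PTGES2 and PTGES. Across the 538 detected genes of chromosome 9 the median was 0.34 and 67.3% were higher in A549-ZNF300, whereas over all detected genes the median was -0.06 and 46.6% were higher. Housekeeping centring, which shifts all genes by -0.39, placed the median of chromosome 9 at -0.05 and that of all detected genes at -0.45. That shift comes from the median housekeeping signal of each array, whereas the median log2 difference of those genes was 0.09. The sign of the chromosome 9 median thus rests on how the centring was done. The part of the chromosome-wide difference in the values of PTGR1, PTGES2 and PTGES was not tested. On chromosome 1, which holds PTGS2 and PLA2G4A, the median was -0.22 and 40.1% of 1286 detected genes were higher. On chromosome 4, which holds HPGD, the median was -0.02 over 493 genes.

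The rest of the eicosanoid system was read from 8 further lists, of 104 genes in all, of which 93 had a probe set that names them alone and 72 were detected. Of these 72, 6 were higher and 11 lower by 2-fold or more in A549-ZNF300. Over all 13221 detected genes the shares were 13.6% higher and 15.4% lower. Among genes of arachidonate release and recycling, 10 of 18 were detected, 1 at least 2-fold higher and 2 lower, with a median log2 difference of 0.08. PLA2G4C, a paralogue of PLA2G4A, differed in the other direction, with log2 signals of 6.86 in A549-ZNF300 and 8.96 in A549-LV5, 4.28-fold lower, and was called absent in A549-ZNF300. PLA2G15, the lysosomal phospholipase, had 7.75 in A549-ZNF300 and 8.87 in A549-LV5, 2.18-fold lower. S100A10, the partner of annexin A2 that also binds cytosolic phospholipase A2, had 14.37 in A549-ZNF300 and 13.18 in A549-LV5, 2.28-fold higher. With housekeeping centring 0 genes of this list were at least 2-fold higher and 3 lower, S100A10 was under 2-fold, and ACSL4, an acyl-CoA ligase that prefers arachidonate, had a log2 difference of -1.11 in place of -0.72. Without that centring, the 3 detected probe sets of ACSL4 lay between -2.56 and -0.72. ANXA1, whose product was first described as a phospholipase A2 inhibitor, had a log2 difference of 0.80, and its other detected probe set had 0.06.

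Of 9 other prostanoid synthases, 5 were detected, 1 at least 2-fold higher and 0 lower, with a median of 0.53. TBXAS1, thromboxane synthase, had 7.59 in A549-ZNF300 and 6.22 in A549-LV5, 2.58-fold higher, but was under 2-fold with housekeeping centring. AKR1C3, the aldo-keto reductase that makes PGF-type products, had 15.05 in A549-ZNF300 and 14.09 in A549-LV5, 1.93-fold higher, and PTGES3, the cytosolic PGE synthase also known as the HSP90 co-chaperone p23, had a log2 difference of 0.19. Of the 7 other prostanoid receptors, 3 were detected, 0 at least 2-fold higher and 1 lower. That was PTGIR, the prostacyclin receptor gene, with 2.41 in A549-ZNF300 and 6.19 in A549-LV5, a log2 difference of -3.78 that was -0.16 with the dim signal raised to the array median. Of export and breakdown genes other than those above, 3 of 4 were detected and 0 were 2-fold apart in either direction. ABCC4, the exporter of PGE2, had a log2 difference of 0.20, and PTGR2, a further keto-prostaglandin reductase, one of -0.36. The 3 detected probe sets of ABCC4 lay between -0.90 and 0.20.

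By the probe set that represents each gene, the signalling steps below EP2 and EP4 held 1 gene that was 2-fold apart. Of 26 genes for the G protein, adenylyl cyclases, protein kinase A, CREB factors and the PDE4 family, 20 were detected, 1 of them at least 2-fold higher and 0 lower, with a median of 0.09. PDE4D, a phosphodiesterase that degrades cAMP, had 12.38 in A549-ZNF300 and 10.88 in A549-LV5, 2.83-fold higher, and its 6 detected probe sets lay between 0.72 and 3.22. Some probe sets of other genes were 2-fold apart too. The 8 detected ones of GNAS lay between -2.51 and -0.34, the 3 of PRKACB between -2.27 and 0.77, and the 5 of CREM between -0.15 and 1.73. With the arrays centred on housekeeping genes, 3 of these 20 genes were at least 2-fold lower.

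PTGS2 differed in direction from most of the listed genes with which it is commonly induced by interleukin-1 or TNF. Of 12 such cytokine and NF-kB response genes, 11 were detected, 6 lower by 2-fold or more and 0 higher by as much in A549-ZNF300, with a median of -1.07. Over all 13221 detected genes, 15.4% were lower and 13.6% higher by 2-fold or more. The list was chosen with earlier results of these data known, so the counts are a description. CCL20, a chemokine, had 6.59 in A549-ZNF300 and 13.73 in A549-LV5, 141-fold lower. IL6 had 7.66 in A549-ZNF300 and 13.91 in A549-LV5, 76.4-fold lower, and the chemokine gene CCL2 had 8.59 in A549-ZNF300 and 11.50 in A549-LV5, 7.53-fold lower. CXCL2, CXCL3 and CXCL1, neutrophil chemokine genes, had log2 differences of -1.94, -1.19 and -1.07. CXCL8 had one of -0.56, and IL1B, the single gene of the list with a positive value, had 0.36, which was -0.02 with housekeeping centring. That value is of the probe set that represents IL1B, and its 2 detected probe sets lay at -0.50 and 0.36. The signals of the 6 genes that were 2-fold lower lay above the median of each array, as did those of PTGS2, although CCL20 was called absent in A549-ZNF300.

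Of 11 genes that regulate PTGS2 transcription or the stability of its mRNA, all were detected, 1 was at least 2-fold lower and 0 higher, with a median of -0.23. The NF-kB subunit genes NFKB1 and RELA had log2 differences of -0.93 and -0.70, and CEBPB one of -0.83. ELAVL1, which encodes the stabilising RNA-binding protein HuR, had one of 0.73, with its 3 detected probe sets between -0.003 and 0.73. ZFP36, which encodes the destabilising protein tristetraprolin, had one of -0.48, and the related genes ZFP36L1 and ZFP36L2 had -0.23 and 0.97. The 3 detected probe sets of ZFP36L2 lay between 0.82 and 2.31. The receptor genes IL1R1 and TNFRSF1A had 0.91 and 0.21, and CEBPD had 0.24. The part of any of these genes in the PTGS2 signal was not tested. CELF2, a further RNA-binding protein gene, had 5.97 in A549-ZNF300 and 9.01 in A549-LV5, 8.21-fold lower. It was called absent in A549-ZNF300, where the signal was below the array median, and the log2 difference of -3.04 was -2.97 with that signal raised to the median. The log2 differences of its 4 detected probe sets lay between -5.62 and -1.04.

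**Figure D4:**
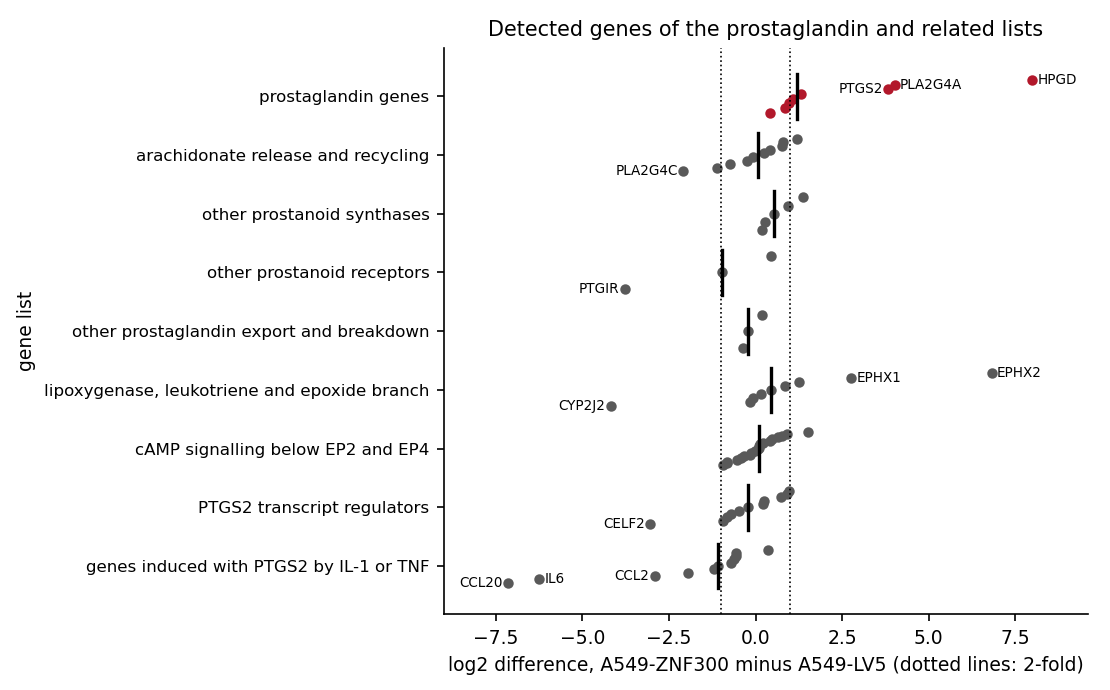
Log2 difference of A549-ZNF300 minus A549-LV5 (x axis) for detected genes of each list (y axis), 1 point per gene, with a bar at the list median, dotted lines at 2-fold and names where the gene is at least 4-fold apart. HPGD, PLA2G4A and PTGS2 lie to the right, while CCL20, IL6 and CCL2 lie to the left.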

How the data were processed

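Total RNA of A549-ZNF300 and A549-LV5 cells was hybridised on Affymetrix Human U133 Plus 2.0 arrays, 1 per condition. As deposited, the values were log2 signals of 54675 probe sets. MAS5 and affy are named, without versions, in the submitters' processing notes, the methods of the study name SCAN/UPC normalization, and which made these signals is not given in the sources used here. A second table of theirs held 8187 probe sets, all at least 2-fold apart, with the same signals, a detection call (present, marginal or absent) per array, and their own fold changes and directions, which were not used.

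Signals were used as deposited, with Python 3.11.15, pandas 2.3.3 and numpy 2.4.6. The array annotation gave 41097 probe sets 1 gene, 1801 several and 11777 none, and only the first were used. Detection meant a signal at or above the array median in at least 1 array (13221 genes), and a gene took its detected probe set with the highest mean. Normalization and background treatment can change differences of dim probe sets most. Counting was tested on simulated data. The members and lists were chosen with earlier results of these data known. All members were named, with list genes at least 2-fold apart, examples under 2-fold, and the 3 genes nearest to the member with the largest difference. Alternatives were median or housekeeping centring, quantile normalization, 3 filters, the probe sets of a gene, an offset of 16, dim signals raised to the array median, the authors' table, and thresholds of 1.5-fold and 3-fold. Sequences, gene order and chromosomes are from RefSeq (GRCh38.p14).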

Additional observations from a re-analysis of the deposited data

How the results depend on the processing

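Because there was 1 array per condition, no replicate could be left out. No paired analysis was possible because each group has 1 array and no result comes from a test. Filters and thresholds leave the log2 difference of a gene as it is unless they change its probe set, and centring shifts all genes alike, so their number is no measure of stability. Over the alternatives HPGD lay between 6.91 and 8.68, PLA2G4A between 3.63 and 4.12, PTGS2 between 3.44 and 3.93, and PTGER2 between 0.26 and 1.41. The count of genes at least 2-fold lower was 0 under all 13 alternatives. That of genes at least 2-fold higher was 3 with housekeeping centring, with a filter at the 75th percentile (HPGD, PTGS2 and PLA2G4A), with signals required to reach the median on each array (PTGS2, PTGES2 and PLA2G4A) and at 3-fold, and 4 to 7 otherwise. Housekeeping centring moved the median of all detected genes from -0.06 to -0.45. It used the median housekeeping signal of each array, a shift of -0.39, although the median log2 difference of those genes was 0.09. All values and counts given with housekeeping centring rest on that choice. HPGD has no value without _x_at and _s_at probe sets or with the filter in both arrays.

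The other lists are given by their genes at least 2-fold apart in either direction. With median centring, 2 prostanoid synthases, 2 cAMP genes and 3 PTGS2 regulators were apart, in place of 1 of each. With housekeeping centring there were 0 synthases, 2 receptors in place of 1, 4 cAMP genes and 4 regulators, and the arachidonate list had 3 lower and 0 higher in place of 2 and 1, the lipoxygenase and epoxide list 1 lower and 2 higher in place of 1 and 3. Quantile normalization gave 2 synthases. Without the filter there were 2 synthases, 2 receptors, 9 lipoxygenase and epoxide genes in place of 4, and 3 cAMP genes. The filter at the 75th percentile gave 0 synthases and 2 lipoxygenase and epoxide genes, and the filter in both arrays gave 0 receptors, 2 lipoxygenase and epoxide genes and 0 regulators. Without _x_at and _s_at probe sets there were 0 synthases, 2 receptors and 2 cAMP genes, and with dim signals raised 0 receptors. In the authors' table of called probe sets, which holds only those at least 2-fold apart, there were 5 arachidonate genes in place of 3, 4 cAMP genes and 2 regulators. At 1.5-fold there were 6 arachidonate genes, 2 synthases, 2 receptors, 7 cAMP genes and 7 regulators, and at 3-fold 1 arachidonate gene, 0 synthases and 0 cAMP genes. The cause was not tested where scaling moved a count, and the filters leave fewer or more genes by construction. Of the genes induced with PTGS2, 4 (at 3-fold) to 8 (at 1.5-fold) were apart, and which ones was not compared. Signals near the array median limit PTGER2, PTGIR and SLCO2A1 in particular.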

Other observations

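Outside the prostaglandin branch, the other fates of arachidonic acid went both ways. Of 17 lipoxygenase, leukotriene and epoxide genes, 9 were detected, 3 at least 2-fold higher and 1 lower in A549-ZNF300, with a median log2 difference of 0.45. EPHX2, the soluble epoxide hydrolase that degrades arachidonate epoxides, had 8.75 in A549-ZNF300, called present, and 1.92 in A549-LV5, called absent, a log2 difference of 6.83 that was 2.61 against the median of that array. EPHX1, the microsomal epoxide hydrolase, had 9.93 in A549-ZNF300 and 7.16 in A549-LV5, 6.81-fold higher, and was called absent in A549-LV5. CYP2J2, an epoxygenase that makes those epoxides, had 4.29 in A549-ZNF300, called absent, and 8.47 in A549-LV5, called present, a log2 difference of -4.19 that was -2.44 with the dim signal raised to the array median. ALOX5AP, the partner protein of the leukotriene enzyme arachidonate lipoxygenase ALOX5, had 7.92 in A549-ZNF300 and 6.66 in A549-LV5, 2.39-fold higher, but was called absent in A549-LV5 and was under 2-fold with housekeeping centring. ALOX5 itself was not detected. LTA4H, which makes leukotriene B4, had a log2 difference of -0.08.

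The genes whose 2 log2 signals lay nearest to those of HPGD, by Euclidean distance, were COL4A6 at 0.54, NEDD9 at 0.57 and DNAJC12 at 0.93. COL4A6, a basement membrane collagen gene, had 12.52 in A549-ZNF300 and 4.96 in A549-LV5, and NEDD9, a focal adhesion scaffold gene, had 12.48 in A549-ZNF300 and 5.04 in A549-LV5. DNAJC12, a co-chaperone gene, had 12.57 in A549-ZNF300 and 5.86 in A549-LV5. This likeness rests on 2 arrays only, and the A549-LV5 signals of HPGD and of all 3 genes were below the array median of 6.14, where the 4 probe sets of HPGD itself spread between 1.76 and 5.06, so the distances rest in part on dim signals. No detected prostaglandin gene had a negative log2 difference, so no such neighbours were sought at that end.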
